A study of Mus musculus with 6 samples.

Results

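Interferon signalling and antigen presentation were examined through 43 mouse genes, from the interferon receptors to the antiviral effectors and the MHC molecules. The genes were chosen by name from this pathway, and all 43 were found by their Ensembl identifiers among the 55401 genes of the deposited table. Of these, 26 averaged 1 FPKM or more over the 6 libraries and were tested. The other 17 had a lower mean and are described by their levels alone. FPKM is the number of fragments on a gene divided by the gene's length in kilobases and by the depth of the library. This allows levels of different genes to be compared, with less certainty for genes that share sequence with other genes or overlap them.

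Interferons bind receptors at the cell surface, and the receptors activate transcription factors, among them STAT2 and IRF9, which switch on interferon-stimulated genes through a DNA element called the ISRE. Many of these genes stay almost silent until an interferon or a viral RNA is sensed, and are then strongly induced. MHC class I molecules, made of a heavy chain and B2m, present peptides from inside nearly every nucleated cell, whereas MHC class II molecules are mostly made by specialised antigen-presenting cells under the control of Ciita.

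The RNA came from cultures of C57BL/6 mice that the authors label as FGSCs (female germline stem cells), which had been passaged more than 20 times. All cultures were grown on inactivated STO feeder cells, a mouse fibroblast line, in serum with LIF, EGF, bFGF and GDNF. The control group was 3 libraries of cells whose treatment label is none, and the metformin group was 3 libraries of cells given 1 μM metformin, a biguanide used against diabetes, for 24 h. A further protocol field of the labels names metformin for all 6 samples, so the groups rest on the treatment label. The labels do not say whether the libraries of a group came from separate cultures, so p-values measure only the spread between these libraries, which may be technical.

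The depth was estimated at 13400000 to 14000000 fragments per library, at which 3 fragments on a gene of 1 kb correspond to 0.214 to 0.224 FPKM. Markers of the labelled cell type were near the lower end of the scale. Among 6 germ cell markers, Dazl, Dppa3 and Pou5f1 stood at 0 in every library, Ddx4 and Prdm1 reached at most 0.05 and 0.04 FPKM, and Ifitm3 ranged from 0.32 to 1.32 FPKM. Ifitm3 has related genes, and how fragments that match several genes were counted is not stated. The summed level of 10 fibroblast markers was 0.8 to 0.97 FPKM. All 10 markers shared by blood cells passed the minimum of 1 FPKM, and their summed level was 608 to 629 FPKM. Of 10 mast cell markers, 4 passed this minimum (Cpa3, Gata2, Kit and Il1rl1), and Fcer1a, Mcpt4 and Tpsb2 were listed at 0. Of 7 macrophage markers, Adgre1 and Cd68 passed, and Csf1r reached at most 0.04 FPKM. The summed level was 0.9 to 1.13 FPKM for 6 dendritic cell markers and 0.05 to 0.1 FPKM for 5 B cell markers. These are bulk libraries, in which fewer cells of a type and less RNA per cell cannot be told apart.

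The receptors and the MHC class I system were well expressed in these cultures, whereas most antiviral effectors and the MHC class II chains were near the detection limit. The means of the 43 genes over the 6 libraries ran from 0.00333 FPKM for Oasl2 and Zbp1 to 384 FPKM for B2m. A mean of at least 10 FPKM was reached by 11 genes, and 12 had a mean under the level of 3 fragments on 1 kb. In the order of mean FPKM, 12 of the 42 neighbouring pairs of genes had values that did not overlap over the 6 libraries. These separations included the steps from B2m to H2-D1, from H2-D1 to Bst2 and from Bst2 to Ifnar2, whereas the values of Ifnar2 overlapped those of Mavs, and those of Mavs overlapped those of Trim25. Below Ifih1 and Dhx58, no neighbouring pair was separated.

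**Figure D1:**
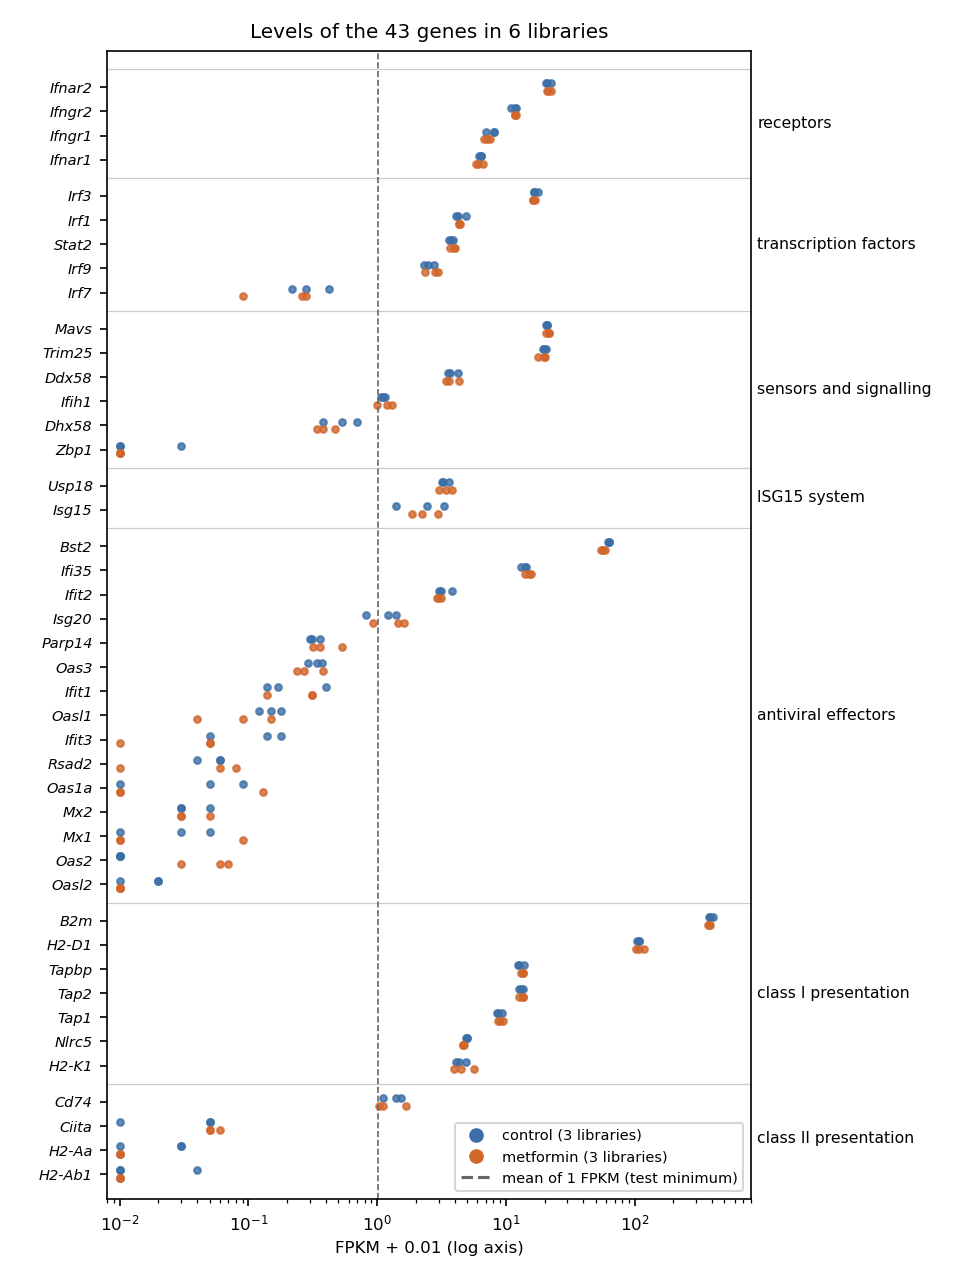
FPKM + 0.01 of each of the 43 genes on a log axis, grouped by role, with a point for each of the 3 control and 3 metformin libraries; the dashed line marks 1 FPKM, the minimum mean for a test. Receptors and class I genes lie above the line in every library, while 11 of the 15 antiviral effectors have means below it and control and metformin points are intermixed for most genes.

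All 4 interferon receptor chains were expressed, and the second chain of each receptor exceeded the first. Ifnar2, a chain of the receptor for type I interferon, measured 20.35, 20.77 and 22.56 FPKM in the control libraries and 22.39, 20.77 and 21.35 FPKM in the metformin libraries. Its partner Ifnar1 had a mean of 6.26 FPKM, and the ratio of Ifnar2 to Ifnar1 was 3.15 to 3.68 over the 6 libraries. Of the receptor for interferon gamma, Ifngr2 averaged 11.7 FPKM (control 11.63 ± 0.545, metformin 11.84 ± 0.159, SD, n = 3) and Ifngr1 7.44 FPKM, with a ratio of 1.36 to 1.72. The groups overlapped for all 4 chains.

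Among the transcription factors, Irf3 was the highest and Irf7 the lowest. Irf3, a constitutive factor that is activated by phosphorylation after sensing of viral nucleic acid, measured 16.65, 16.40 and 17.68 FPKM in the control libraries and 16.31, 16.70 and 16.29 FPKM in the metformin libraries, which overlap. Its locus overlaps Bcl2l12 on the opposite strand, a gene with a mean of 6.56 FPKM, and the sources used here do not state whether the counting used strand. Stat2 and Irf9, subunits of the ISRE-binding complex, averaged 3.82 and 2.61 FPKM, and Irf1, which is itself induced by interferon gamma, averaged 4.38 FPKM. Irf7, the inducible amplifier of type I interferon, ranged from 0.08 to 0.41 FPKM. The annotated ends of Irf7 and Irf9 also overlap expressed genes (Phrf1 by 45 bp and Rnf31 by 123 bp).

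In the RNA sensing pathway, Mavs and Trim25 were above the sensors Ddx58, Ifih1 and Dhx58. Mavs, the mitochondrial adaptor of the RNA sensors, measured 20.74, 20.99 and 20.40 FPKM in the control libraries and 20.34, 21.46 and 21.57 FPKM in the metformin libraries. Trim25, a ubiquitin ligase of the same pathway, measured 20.47, 19.61 and 19.70 FPKM in the control and 17.69, 20.01 and 19.94 FPKM in the metformin libraries. Both overlapped between the groups, and the lowest Trim25 value was that of metformin library 1. The sensors averaged 3.81 FPKM for Ddx58 (RIG-I), 1.13 FPKM for Ifih1 (MDA5) and 0.457 FPKM for the regulator Dhx58 (LGP2). Zbp1, a sensor of Z-form nucleic acid, was listed at 0 in 5 libraries and at 0.02 FPKM in control library 1.

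Of the ISG15 system, both genes were above the test minimum. Usp18, the protease that removes ISG15 from proteins, averaged 3.39 FPKM and ranged from 3.01 to 3.80. Isg15, the ubiquitin-like modifier and a classical interferon-stimulated gene, measured 1.38, 3.30 and 2.44 FPKM in the control libraries and 2.23, 2.95 and 1.86 FPKM in the metformin libraries. Control library 1 was the lowest and control library 2 the highest of the 6, so the control group enclosed the metformin group. With its short transcript, these levels correspond to about 14 to 34 fragments per library.

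The 15 antiviral effectors had a median of 0.112 FPKM, and only Bst2, Ifi35, Ifit2 and Isg20 passed the test minimum. Bst2, or tetherin, which holds budding enveloped viruses at the cell surface, was the third highest of the 43 genes and higher than 98.3% of all genes in the table. It measured 61.80, 63.72 and 63.20 FPKM in the control libraries and 59.26, 57.22 and 55.04 FPKM in the metformin libraries. Every metformin library was below every control library. Ifi35, a small interferon-induced protein, measured 14.38, 13.18 and 14.16 FPKM in the control and 15.72, 15.17 and 14.18 FPKM in the metformin libraries. Its groups overlapped, since metformin library 3 lay between control libraries 1 and 3. Ifit2 averaged 3.16 FPKM, and Isg20, an RNA exonuclease, averaged 1.23 FPKM.

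The other 11 effectors had means between 0.00333 and 0.353 FPKM. Parp14, an ADP-ribosyltransferase, averaged 0.353 FPKM. Of the oligoadenylate synthetase family, which activates RNase L, Oas3 averaged 0.305, Oasl1 0.112, Oas1a 0.04, Oas2 0.0217 and Oasl2 0.00333 FPKM. Of the GTPases that block virus entry and replication, Mx1 averaged 0.0233 and Mx2 0.0267 FPKM. Rsad2 (viperin), whose product makes a chain terminator of viral RNA, averaged 0.0417 FPKM. The family of RNA-binding Ifit genes was uneven. Ifit1 ranged from 0.13 to 0.39 FPKM, Ifit3 from 0 to 0.17 FPKM and Ifit2 from 2.90 to 3.82 FPKM. Ifit2 thus exceeded Ifit1 by 8.08 to 29.4 times over the 6 libraries, with about 5 to 14 fragments per library on Ifit1. Ifit3 rested on about 0 to 4 fragments per library, so no ratio to it is given. Ifit1, Ifit3, the Oas1 genes and the Mx genes have close copies, and the sources used here do not state how fragments that match several genes were counted.

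The ISRE was compared with these levels, because the letters of this element stood near genes at both ends of the scale. Promoter windows from 250 bases before to 50 bases after the annotated start were available for 31 of the 43 genes (RefSeq, GRCm38.p6). The ISRE core was searched as GAAA, any 2 bases and GAAA again, on both strands, and it occurred in the windows of 11 of the 31 genes (35.5%), against 3.99% of the 27025 genes with a window. The core of the gamma-activated site, TTCNNNGAA on both strands, occurred in 8 of the 31 (25.8%), against 9.55% of all genes. The genes with an ISRE core were B2m, Bst2, Stat2, Ddx58, Isg15, Ifih1, Oas3, Ifit1, Ifit3, Rsad2 and Oas1a. Their levels ran from 0.04 to 384 FPKM with a median of 1.13 FPKM, and 5 of them were under 1 FPKM. The 20 genes without it had a median of 6.85 FPKM, and 4 of them were under 1 FPKM. Of the 17 genes with a mean under 1 FPKM, only these 5 and 4 had a window. The 2 medians therefore depend on which windows were available, and their difference was not tested. A match of these letters is a description of the window and no evidence of binding.

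For 5 genes that span this range, the stretch of 60 bases around the core is printed from 5′ to 3′ on the gene's strand, with the ISRE core in capitals. The stretches are chr2:122147523-122147582 (plus strand) for B2m, chr8:71537565-71537624 (minus) for Bst2, chr4:156200856-156200915 (minus) for Isg15, chr19:34640769-34640828 (plus) for Ifit1 and chr12:26456538-26456597 (minus) for Rsad2. All lie upstream of the annotated start. Where the core reads TTTC it lies on the other strand. The capitals of Isg15 hold 3 overlapping cores and those of Bst2 hold 2, and the first core of Bst2 shares its first bases with a gamma-activated site core that runs into it from the left.
B2m: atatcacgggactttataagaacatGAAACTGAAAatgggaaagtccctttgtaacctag
Bst2: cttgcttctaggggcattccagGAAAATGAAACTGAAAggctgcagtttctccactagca
Isg15: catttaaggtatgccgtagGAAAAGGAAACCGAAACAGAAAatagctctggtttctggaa
Ifit1: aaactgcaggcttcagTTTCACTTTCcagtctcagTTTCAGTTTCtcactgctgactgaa
Rsad2: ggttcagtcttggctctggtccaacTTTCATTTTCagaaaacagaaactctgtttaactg

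The mean level of the genes with these stretches was 384 FPKM for B2m, 60.04 FPKM for Bst2, 2.36 FPKM for Isg15, 0.235 FPKM for Ifit1 and 0.0417 FPKM for Rsad2. The same core letters, GAAACTGAAA, stand in the stretches of B2m and Bst2 and, read on the other strand, in that of Ifit1.

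All 7 genes of the MHC class I pathway were expressed, with a median of 13.2 FPKM. B2m, the light chain, measured 383.06, 409.38 and 378.61 FPKM in the control libraries and 383.01, 372.38 and 375.98 FPKM in the metformin libraries. The heavy chain gene H2-D1 measured 104.77, 108.02 and 108.01 FPKM in the control and 118.00, 102.75 and 109.19 FPKM in the metformin libraries. The groups overlapped for both genes, and B2m exceeded H2-D1 by 3.25 to 3.79 times in the 6 libraries. The highest H2-D1 value was that of metformin library 1.

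The other classical heavy chain gene, H2-K1, was listed far lower, at 3.97 to 5.67 FPKM, so that H2-D1 exceeded it by 20.8 to 27.5 times. H2-K1, H2-D1 and the H2-Q genes share much of their sequence, and this ratio is uncertain for that reason. In the same libraries Gapdh, a gene used by every cell that has many processed copies in the genome, was listed at 9.71 to 11.17 FPKM. Of other such genes that have copies, Ppia and Rps18 were also low, with means of 7.83 and 6.15 FPKM, whereas Eef1a1 and Rplp0 were high, with means of 4487 and 852 FPKM. Whether shared sequence bears on the H2-K1 value was not tested.

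Of the peptide loading genes, Tap1 was below Tap2 and Tapbp in every library. Tap1 and Tap2, which together form the peptide transporter, averaged 8.98 and 13.2 FPKM, and Tapbp (tapasin), which bridges the transporter and the heavy chain, averaged 13.2 FPKM. Tap2 measured 13.63, 12.73 and 13.11 FPKM in the control and 13.59, 12.74 and 13.53 FPKM in the metformin libraries. Tapbp measured 13.86, 12.56 and 12.52 FPKM in the control and 13.59, 13.16 and 13.68 FPKM in the metformin libraries. The groups overlapped for Tap1, Tap2 and Tapbp. The Tapbp locus shares 3422 bp on the same strand with Zbtb22, which had a mean of 10.6 FPKM. The Tap1 locus overlaps another gene on the opposite strand by 212 bp, and that gene had a mean of 4.78 FPKM. Nlrc5, the transactivator of class I genes, measured 4.98, 4.92 and 4.99 FPKM in the control libraries and 4.66, 4.73 and 4.64 FPKM in the metformin libraries. Its groups did not overlap, and the values within each group were close together.

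Of the 4 MHC class II genes, Cd74 alone passed the test minimum. Cd74, the invariant chain that guides class II molecules to endosomes, ranged from 1.02 to 1.68 FPKM. Ciita, the master regulator of class II genes, reached at most 0.05 FPKM, and the class II chains H2-Aa and H2-Ab1 at most 0.02 and 0.03 FPKM. H2-Aa was listed at 0 in 4 libraries and H2-Ab1 in 5. The Ciita locus overlaps Dexi on the opposite strand, a gene with a mean of 2.75 FPKM.

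**Figure D2:**
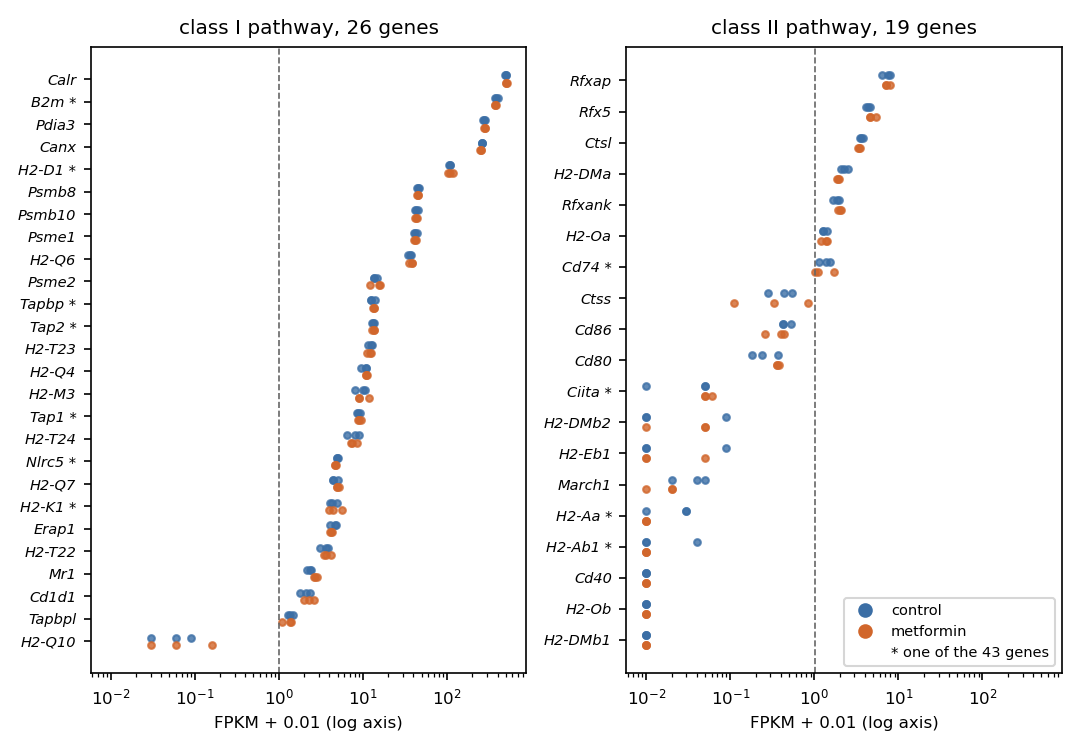
FPKM + 0.01 on a log axis of the genes of the class I pathway (26 genes) and the class II pathway (19 genes), with a point for each control and metformin library; asterisks mark genes among the 43 and the dashed line marks 1 FPKM. Class I genes lie above 1 FPKM except H2-Q10, whereas the class II chains H2-Aa, H2-Ab1 and H2-Eb1 lie below 0.1 FPKM.

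The comparison of metformin with control asked whether any of these genes changed within 24 h. None of the 26 genes tested passed, and the other 17 were not tested. With limma on log2(FPKM + 1) and Benjamini-Hochberg adjustment over all 10661 genes tested, 0 of the 26 reached an adjusted p under 0.05, and the share over all genes was 0.0281% (3 genes). At an unadjusted p under 0.05, 1 of the 26 was lower with metformin, against 4.81% of all genes, and 0 were higher, against 6.03% of all genes. The groups did not overlap for 2 of the 26 in the lower direction, against 8.1% of all genes, and for 0 in the higher direction, against 8.89% of all genes. An exact two-sided permutation test of 3 libraries against 3 cannot give a p below 0.1, which is its value for the genes whose groups do not overlap.

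The gene at an unadjusted p under 0.05 was Bst2. It averaged 62.9 ± 0.993 FPKM in the control group and 57.2 ± 2.11 FPKM in the metformin group (SD, n = 3), a ratio of 0.909, and did not pass the adjusted threshold. Its log2 fold change was -0.14 with an SE of 0.03 and a 95% interval of -0.21 to -0.06 (limma, adjusted p = 0.32). Before adjustment the limma p of Bst2 was 0.0032, which ranked 104th among all genes tested. The unadjusted p of Bst2 stayed under 0.05 in each of the 14 alternative settings, while its adjusted p ranged from 0.204 to 0.528. The summed level of the 10 blood cell markers was 608.3 to 613.7 FPKM in the control group and 614.4 to 628.6 FPKM in the metformin group, and that of the 10 mast cell markers was 760.8 to 794.0 and 757.4 to 772.0 FPKM. Among the blood cell markers, 3 of 10 were higher without overlap (Coro1a, Laptm5 and Vav1) and 2 were lower (Ptprc and Lcp1), against 8.89% and 8.1% of all genes. Of these 10 markers, Vav1 alone had an unadjusted limma p under 0.05, at 0.0072. Of the 4 mast cell markers tested, Gata2 was higher (means of 258 and 275 FPKM) and Cpa3 lower (366 and 338 FPKM) without overlap, with unadjusted limma p-values of 0.0035 and 0.015. None of these markers passed the adjusted threshold in limma, with a lowest adjusted p of 0.320. The part of these markers in the Bst2 difference was not tested.

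Nlrc5 was the second gene without overlap, with 4.96 ± 0.0379 FPKM in the control and 4.68 ± 0.0473 FPKM in the metformin group (SD, n = 3), a ratio of 0.942. Its spread within groups was smaller than that of all but 0.0896% of the genes of like level (within 1.5 times its mean). The moderated test of limma, which draws each spread toward that of other genes, gave a log2 fold change of -0.07 with an unadjusted p of 0.124.

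The 4 other genes among the 5 highest had intervals that included 0. The log2 fold change was -0.05 for B2m (limma, 95% interval -0.12 to 0.02, adjusted p = 0.60), 0.04 for H2-D1 (-0.07 to 0.15, adjusted p = 0.81), 0.02 for Ifnar2 (-0.09 to 0.13, adjusted p = 0.92) and 0.03 for Mavs (-0.05 to 0.10, adjusted p = 0.81). The sign of the H2-D1 difference turned without metformin library 1, and that of Ifnar2 without control library 1 or metformin library 1.

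**Figure D3:**
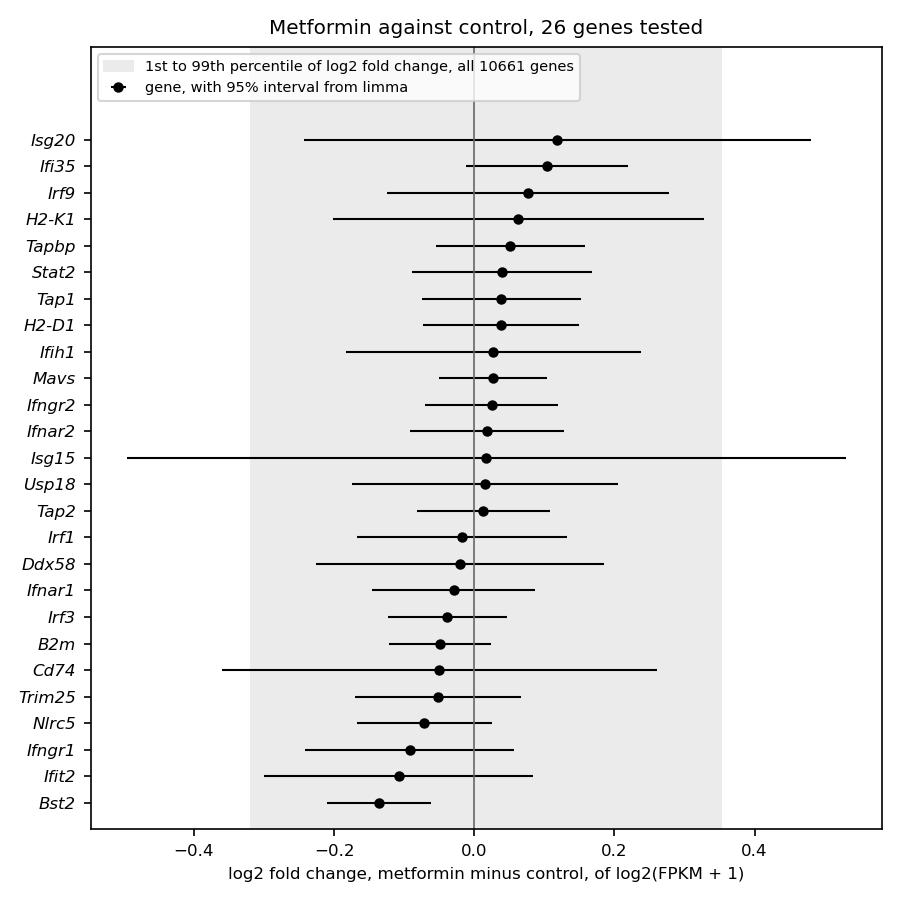
Log2 fold change (metformin minus control, of log2(FPKM + 1)) of the 26 genes tested, with the 95% interval from limma; the grey band spans the 1st to 99th percentile of all 10661 genes tested, -0.32 to 0.35. Every point lies within the band, and the interval of Bst2 alone excludes 0.

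**Figure D4:**
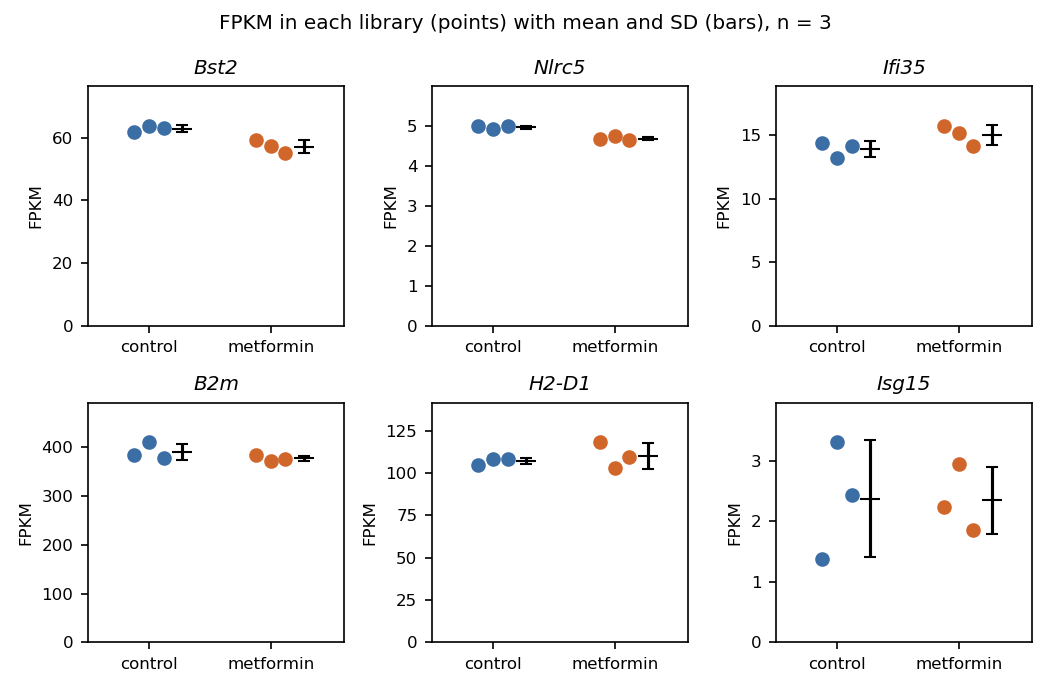
FPKM of 6 genes in each library (points), with the mean and SD of each group of 3 (bars), on axes that start at 0. The groups are separated for Bst2 and Nlrc5 and overlap for Ifi35, B2m, H2-D1 and Isg15.

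By role, the signs of the differences were mixed, as the plot of log2 fold changes shows. Of the 26 genes tested, 15 had a log2 fold change above 0 and 11 below 0, and their median was 0.016, against 0.0041 over all genes tested, of which 52.3% were above 0. The median turned to -0.0060 without metformin library 2, to -0.00024 without metformin library 1 and to -0.0014 with no filter on low values, and 13 of the 26 genes changed sign in at least 1 setting. The single class II gene tested, Cd74, was below 0, at -0.05. The signs were split between 2 higher and 2 lower among the receptors, the transcription factors, the sensors and the effectors alike, and both genes of the ISG15 system were above 0. Of the 7 class I genes, 5 were above 0 and 2 (B2m and Nlrc5) below, with a median of 0.04. The fold changes of the 26 genes ran from -0.14 for Bst2 to 0.12 for Isg20, all within the range between the 1st and 99th percentile of all genes. The Isg20 value moved from 0.0037 to 0.25 when 1 library was left out and was 0.20 with a pseudocount of 0.1.

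The precision differed widely among the genes. The median half-width of the 95% interval was 0.118 on the log2 scale for the 26 genes and 0.120 for all genes tested. B2m, Bst2 and Mavs had intervals among the narrowest. For Isg15 the interval ran from -0.50 to 0.53, the widest of the 26, and a change within these limits was not detectable in these libraries. The SD of Isg15 within groups, 0.35 on the log2 scale, was larger than that of 93.6% of the genes of like level, that of H2-D1, 0.07, was larger than that of 91.3%, and that of H2-K1, 0.17, was larger than that of 90.6%. Over the whole list, the median deviation of the 26 genes from their means was between -0.02 and 0.01 on the log2 scale in each of the 6 libraries, and no library stood apart for the list as a whole.

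**Figure D5:**
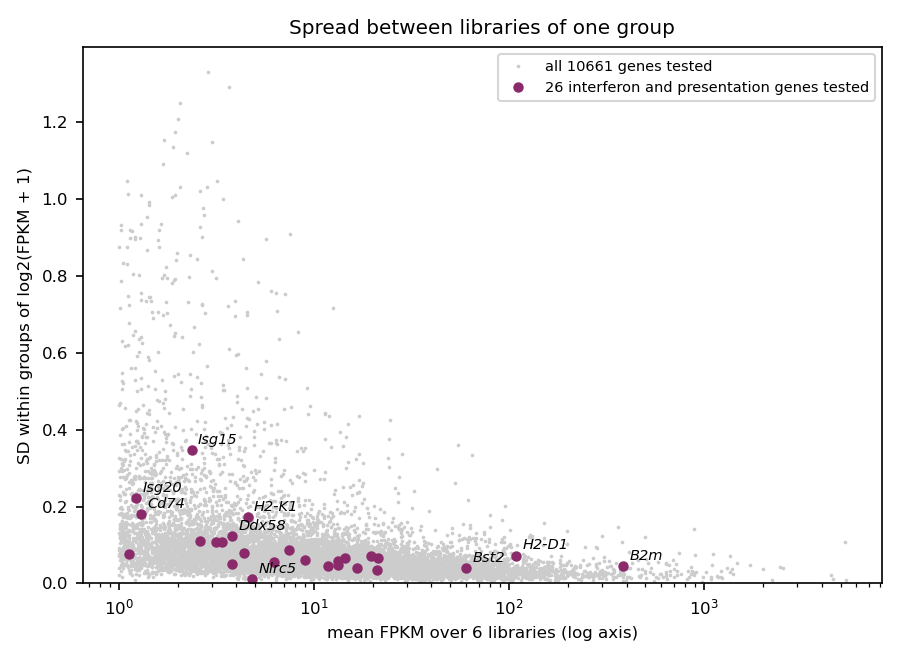
SD within groups of log2(FPKM + 1) against mean FPKM over the 6 libraries (log axis) for all 10661 genes tested (grey) and the 26 interferon and presentation genes tested (purple). Isg15 lies in the upper part of the genes at its level, with an SD of 0.35, and Nlrc5 at the lower edge.

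The 17 genes under the test minimum were low in both groups. Their group means stayed at or below 0.527 FPKM, the control mean of Dhx58. Oas2 was listed at 0 in all 3 control libraries and at 0.06, 0.05 and 0.02 FPKM in the metformin libraries, or about 4, 3 and 1 fragments. Both groups of Oas2 lay below the level of 3 fragments on 1 kb, so no fold is given. Oasl2, Zbp1, H2-Aa and H2-Ab1 were listed at 0 in all 3 metformin libraries and at no more than 0.03 FPKM in the control libraries.

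The rest of the pathway was examined with 127 further genes in 6 lists, of which 116 were matched by symbol and 58 were tested. A symbol was available for 32589 of the 55401 genes. A gene without a match may therefore still be in the table, and its values were not read. None of the 58 had an adjusted p under 0.05 (limma, lowest adjusted p = 0.346). At an unadjusted p under 0.05, 2 were higher and 1 was lower, and the groups did not overlap for 5 in each direction. The background shares are those given for the 26 genes.

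The interferon genes that could be matched had no listed expression. Of 21 ligand genes listed, the 11 matched by symbol, among them Ifnb1, were listed at 0 in every library. The values of the unmatched ligand genes were not read. How fragments that match several genes were counted is not stated, which limits the reading of a 0 for the related Ifna genes. All 14 of a set of genes used by every cell were above 0 in every library, with means of 4.55 to 4487 FPKM. These 14 genes were chosen after their values were seen. At such levels they cannot show whether a rare transcript would be detected. Of 15 kinases, STAT and IRF factors and feedback regulators, 12 were tested and 0 were called in either direction. The highest were Ptpn6, a phosphatase that limits cytokine signalling, at 74.4 FPKM and the receptor kinase Jak1 at 26.2 FPKM. Of 17 sensing and signalling genes, 11 were tested and 0 were called, and the highest were the adaptors Myd88 at 16.9 FPKM and Traf3 at 16.6 FPKM.

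The 39 other interferon-induced genes resembled the effectors in that most were low. Of these, 28 had a mean under 1 FPKM, 5 were listed at 0 in every library, 11 were tested and 0 were called. The highest were the membrane proteins Ifitm1 at 501 FPKM and Ifitm2 at 167 FPKM, which restrict virus entry, while their neighbour Ifitm3 averaged 0.662 FPKM. The Ifitm genes are related, and the sources used here do not state how fragments that match several genes were counted. Of 20 other class I genes, 19 were matched by symbol (all but Psmb9), 18 were tested and 0 were called. The highest were the chaperones Calr at 502 FPKM and Pdia3 at 279 FPKM. Of 15 other class II genes, 6 were tested and 0 were called. The highest of these were Rfxap at 7.32 FPKM and Rfx5 at 4.58 FPKM, subunits of a factor that binds the promoters of MHC genes.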

How the data were processed

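The authors deposited a table of FPKM values for 55401 Ensembl genes in 6 mouse RNA-seq libraries. The submitters' processing notes name HISAT2, DESeq2 and mm9, whereas the gene positions in the table are those of GRCm38. The counter and the treatment of fragments with several matches are not given in the sources used here. Per the labels, the library kit was stranded, and the study's methods name another kit. Since the values are FPKM and not counts, no count test was made. Depth was estimated from the step that 1 fragment makes on single-exon genes under 400 bp (315 to 343 values per library, 100% within 0.1 of a whole multiple).

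Values were analysed as log2(FPKM + 1), so fold changes of low genes are understated. Genes that averaged 1 FPKM or more were tested with limma (version 3.58.1, R 4.3.3; lmFit, eBayes with a trend, two-sided, Benjamini-Hochberg over all genes tested). Fragments per gene were estimated from FPKM, depth and exon length. They cover counting error only.

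The genes, lists and tests were chosen with earlier results of these data known. All 43 genes are named with their level. Values in every library are given for the 10 highest and for genes whose groups did not overlap or whose p was under 0.05, and test statistics for genes with a p under 0.05 and for the 5 highest. The library values of Isg15 and Oas2, the statistics of Nlrc5, and other genes singled out were chosen after their values were seen, as was the set of 14 genes used by every cell. Of each pathway list the 2 highest genes are named. A gene of these lists is not reported here. Older symbols were matched through RefSeq. Figures were drawn with matplotlib 3.10.9.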

Additional observations from a re-analysis of the deposited data

How the results depend on the processing

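No gene of the list that was tested reached an adjusted p under 0.05 in limma in any of the 14 alternative settings. All 43 genes were tested only with no filter. At an unadjusted p under 0.05, 2 of 26 genes were lower without the trend (Bst2 and Nlrc5), against 4.56% of all genes. When genes had to average 10 FPKM or more, 1 of the 11 genes left had groups that did not overlap in the lower direction, against 9.95% of all genes. With no filter, 1 of 43 genes was higher at an unadjusted p under 0.05 (3.92% of all genes) and 1 had no overlap in the higher direction (5.35% of all genes), in both cases Oas2, with about 4 fragments or fewer, and the median log2 fold change was -0.0014. Leaving out each library in turn gave 0 to 1 gene higher and 1 to 2 lower at an unadjusted p under 0.05, and 1 to 3 higher and 2 to 5 lower without overlap. Over all genes the shares were 4.79% to 5.86% higher and 3.67% to 4.77% lower at an unadjusted p under 0.05, and 13.8% to 14.7% higher and 12.2% to 13.1% lower without overlap. The 5 genes (19.2% of 26, against 12.2% of all genes) came without metformin replicate 2. The added genes at an unadjusted p under 0.05 were Tapbp and Ifngr1 without control replicate 1 and Ifi35 without metformin replicate 3. The median over the 26 genes was then -0.0060 to 0.0138. The log2 fold change was -0.0098 to 0.061 for Ifnar2 and -0.0134 to 0.085 for H2-D1, reversed for Ifnar2 at -0.0098 (without control replicate 1) and -0.0097 (without metformin replicate 1) and for H2-D1 at -0.0134 (without metformin replicate 1). The cause was not tested. In all, 13 of the 26 genes changed sign in at least 1 setting.

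Same-numbered libraries deviated together with correlations of -0.03, 0.02 and 0.05, so the numbers were not taken to pair the samples. With a replicate block, 0 of the 26 genes were called, 1 was lower at an unadjusted p under 0.05 (4.23% of all genes), the adjusted p of Bst2 was 0.466 and 2 genes were called over the whole table. The block changed no other call.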
